A study of Mus musculus with 4 samples.

Results

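Genic CHH gains below 10% in cKO are short stretches of DNA inside protein-coding genes in which cytosine methylation outside CG dinucleotides was low in both groups and higher in the Nsd1 knockout. CHH is a cytosine followed by A, C or T and then again by A, C or T. The regions were chosen by their measured levels in the authors' deposited table of differentially methylated regions in mm10. A region had to lie on an autosome, be listed in the CHH context, have a mean level higher in cKO than in control, stay below 10% in cKO, and share at least 1 bp with a RefSeq protein-coding gene. Of 101350 regions in the table, 6463 met the rule. They were 76.7% of the 8427 autosomal CHH gains and 83.7% of the 7723 gains inside genes. A further 1260 genic gains had 10% or more in cKO, and 606 gains below 10% lay outside genes. Because the levels made the choice, the direction, the size of the difference and the overlap with genes are given below as description, without a test.

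Whole-genome bisulfite sequencing was done on somatosensory cortex from mice aged 2.5 months, with 2 libraries of genotype Nsd1Nex-cKO (cKO) and 2 of genotype Nsd1fl/+ (control). The Nex driver acts in excitatory neurons of the forebrain, so that interneurons, glia and vessels in the same tissue would keep NSD1. The control carries 1 floxed allele, and whether it carries the driver is not given in the sources used here. The labels do not say whether the replicates are separate animals. The table holds 1 mean level per group and region, so no spread between libraries, depth or test over mice stands behind any value below, and the intervals given for shares cover the counting of regions only (95%, exact Clopper-Pearson). In bulk tissue a different mix of cells and a different methylation level per cell cannot be told apart, and the labelled tissue could not be checked against marker transcripts. All 4 CHH regions on mitochondrial DNA, over 3967 cytosines, were lower in cKO (6.52% in control, 0.510% in cKO, weighted by cytosine), opposite in direction to the genic gains by -6.01 points, where the median genic gain was 4.85 points. The part of bisulfite conversion in the levels was not tested.

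In neurons, DNMT3A writes methylation at CH sites, mostly at CA, after birth. Histone H3 lysine 36 dimethylation, which NSD1 places, is bound by the PWWP domain of DNMT3A, while the trimethyl mark placed by SETD2 in transcribed gene bodies is bound most strongly by DNMT3B. Actively transcribed genes in neurons are known to carry less CH methylation than silent ones.

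The sequence of 4 regions could be read, because they lie wholly inside RefSeq promoter windows (GRCm38.p6, 250 bases before to 50 after a listed start site). They are shown to make clear what a region holds: a dense mix of cytosines on both strands, most of them not in CG. Capitals mark the CHH cytosines, as C where the cytosine is on the printed plus strand and as G where it is on the other strand. Only the first lies at a start site listed for its own gene, and the others lie at the starts of the predicted genes Gm35343, Gm46772 and Gm30543.
Gramd1c, chr16:44028057-44028186, plus strand: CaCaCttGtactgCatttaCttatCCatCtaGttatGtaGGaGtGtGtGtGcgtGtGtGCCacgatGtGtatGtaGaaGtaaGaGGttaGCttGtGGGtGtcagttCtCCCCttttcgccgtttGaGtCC
Ermard, chr17:15053375-15053470, plus strand: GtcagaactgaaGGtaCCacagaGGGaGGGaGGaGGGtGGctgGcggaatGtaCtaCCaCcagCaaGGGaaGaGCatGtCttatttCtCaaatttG
Mmp24, chr2:155798066-155798132, plus strand: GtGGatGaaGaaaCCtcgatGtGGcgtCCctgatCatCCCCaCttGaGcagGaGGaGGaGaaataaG
Ltbp4, chr7:27329693-27329777, plus strand: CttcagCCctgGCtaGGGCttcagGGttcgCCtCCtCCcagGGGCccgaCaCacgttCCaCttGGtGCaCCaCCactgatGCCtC

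The CHH cytosines counted in these letters on both strands equalled the authors' deposited number in each region, 47 in Gramd1c, 36 in Ermard, 27 in Mmp24 and 38 in Ltbp4. The number of cytosines in the table therefore counts both strands here. Of the 148 cytosines, 47 were followed by A (31.8%), against 61 of 251 (24.3%) in the 7 CHH losses that lie inside such windows and 26.6% in all 31396 autosomal windows. So few regions describe only themselves. In Gramd1c, which encodes a lipid transfer protein, 21 cytosines were CA, 16 CT and 10 CC, and the mean level was 1.98% in control and 6.83% in cKO. Ermard had 1.26% in control and 4.28% in cKO. Mmp24, a membrane-bound matrix metalloproteinase, had 0.811% and 4.54%. Ltbp4, which binds latent TGF-beta in the extracellular matrix, had 0.441% and 3.40%, with 21 of its 38 cytosines in CC. Of all 6463 regions only 5 (0.0774%) touched a promoter window, against 39 of 11102 genic CHH losses (0.351%).

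The regions were small and started from a low level. Their median length was 106 bp (quartiles 77 and 148, longest 1012) with a median of 40 cytosines (quartiles 29 and 54), so that together they cover 748 kb and 278588 cytosines. The median level was 1.52% in control (quartiles 1.01% and 2.16%) and 6.50% in cKO (quartiles 5.22% and 7.84%). In control 4508 of them (69.8%) had 2% or less, and 1580 (24.4%) had 1% or less. The median difference was 4.85 points (quartiles 4.06 and 5.68, range 2.02 to 9.30), and the cKO level was 4.12 times that of control at the median. It was at least 4 times as high in 3461 regions (53.6%) and at least 10 times as high in 223 (3.45%). Long regions were rare, with 262 (4.05%) of 200 bp or longer. Over the 6463 regions the difference was larger where the control level was higher (Spearman correlation 0.54). Both levels were used by the rule, and in the 1260 genic gains of 10% or more that correlation was -0.23. The difference was also larger where the region was longer (Spearman correlation 0.45 over the 6463). These correlations are a description across regions that share libraries.

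**Figure D1:**
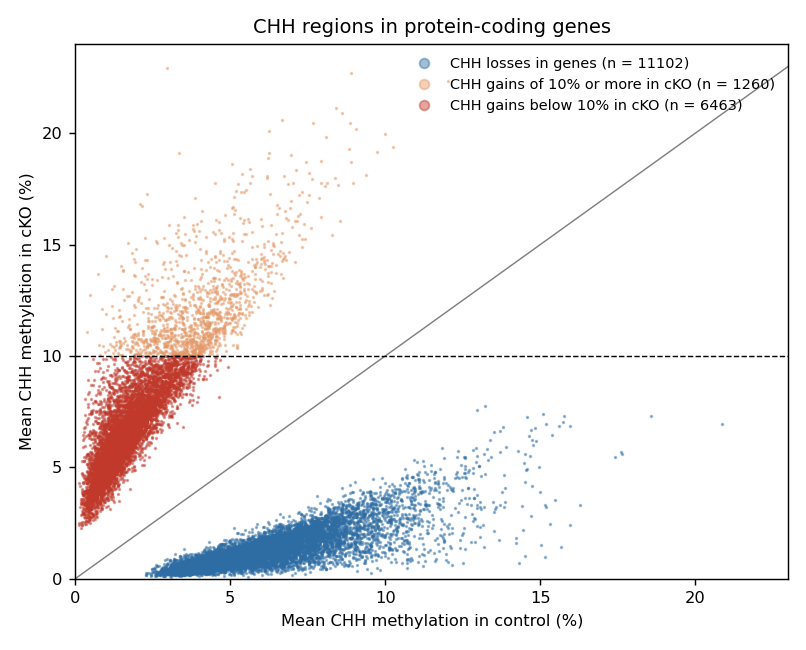
Mean CHH methylation in control (x axis, %) and in cKO (y axis, %) for each CHH region inside autosomal protein-coding genes, 1 point per region, with the 10% bound dashed and equal levels on the diagonal. The 6463 gains below 10% centre on 1.52% (control) and 6.50% (cKO), next to the 1260 gains of 10% or more, while the 11102 losses lie under the diagonal.

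The bound cuts through one continuous range of cKO levels. The number of genic gains per 1-point step of the cKO level was highest between 6% and 7% (1323 regions), and was 832 between 8% and 9%, 623 between 9% and 10% and 436 between 10% and 11%. Just inside lay regions in Smad1, which transmits BMP signals (9.99984% in cKO, 3.96% in control), Syne1, which encodes the nuclear envelope protein nesprin-1 (9.9997% and 1.91%) and the kinase gene Map3k9 (9.99913% and 3.20%). Just outside lay regions in Smyd3 (10.0017% and 2.29%), Nwd1 (10.0026% and 4.80%) and Slc24a2, a sodium, calcium and potassium exchanger (10.0056% and 2.98%). The 1260 gains of 10% or more had medians of 3.999% in control and 11.7% in cKO, a length of 154 bp and 54 cytosines. Cytosine density was close in both, at 37.9 per 100 bp below the bound and 36.3 above it. Among all 17565 genic CHH regions below 10% in cKO, the gains were 36.8% (interval 36.1% to 37.5%), and the rest were losses with medians of 5.71% in control and 1.10% in cKO over all 11102.

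The gains were spread over many genes, and over long genes above all. Of 20556 autosomal protein-coding genes, 2994 carried at least 1 (14.6%), beside 15.7% with a CHH loss, 7.56% with a CG region higher in cKO and 19.3% with a CG region lower. In 1576 of the carriers (52.6%) there was 1 region, in 1127 there were 2 to 4, in 249 there were 5 to 9, and in 42 there were 10 or more. The median gene length was 54.0 kb for carriers of 1, 102 kb for 2 to 4, 272 kb for 5 to 9 and 469 kb for 10 or more, against 17.6 kb over all genes. Over the 20556 genes the number of regions followed gene length with a Spearman correlation of 0.45, and the number of CHH losses with 0.33, both without a test.

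The density per Mb also differed with gene length. Genes were split into deciles of length. In the decile of the shortest genes, with a median of 0.948 kb, 0% of the genes carried a gain and 0.730% a CHH loss. In the next deciles the share with a gain was 0.0973%, 1.07%, 2.58%, 5.30%, 8.75%, 14.2%, 23.4% and 34.9%, and in the longest, with a median of 188 kb, 55.4%. Per Mb of gene body the gains went from 0 in the shortest decile through 4.03 in the fifth to 8.16 in the ninth and 6.40 in the longest. Losses had no such slope, at 15.0 per Mb in the second decile, 12.4 in the fifth and 11.02 in the longest. The shares with a loss passed those with a gain in the 7 shortest deciles and lay under them in the other 3.

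**Figure D2:**
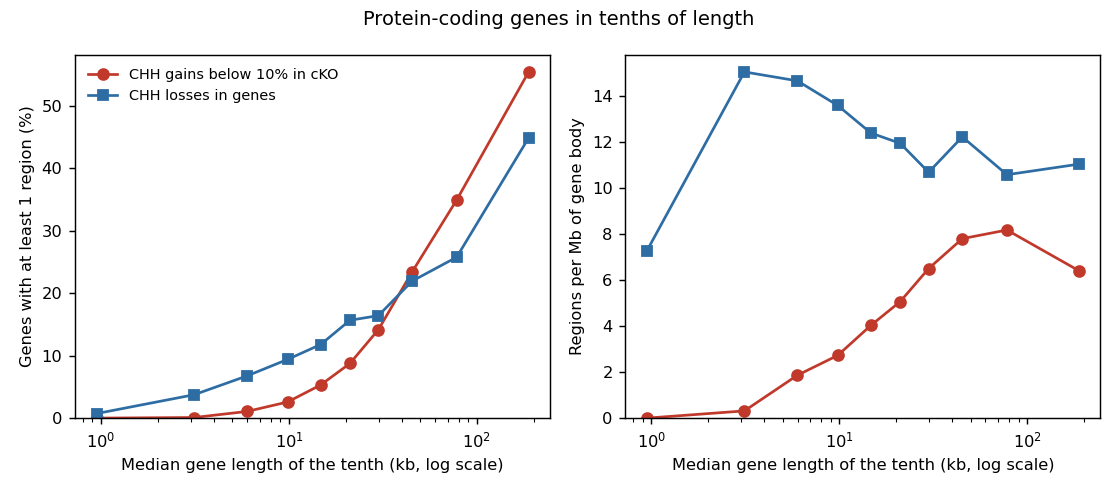
Autosomal protein-coding genes in 10 equal groups by length (x axis, median length in kb, log scale), with the share of genes that carry at least 1 region (left, %) and the number of regions per Mb of gene body (right). Gains below 10% in cKO go from 0% to 55.4% of genes and reach 8.16 per Mb in the ninth group, while losses stay between 10.6 and 15.0 per Mb in all but the shortest group.

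Position along the gene was not used to choose the regions. It could be set for 5071 of them, in genes whose strand is in the RefSeq promoter table, and each was placed by its centre from the start (0) to the end of the gene body. The gene body was split into 10 equal bins. The first bin held 6.03% of the gains, the second 8.50%, and the last 3 bins 11.5%, 12.03% and 11.6%. Losses ran the other way, from 14.7% in the first bin to 6.67% in the last. Beyond the midpoint of the gene lay 2861 gains (56.4%, interval 55.0% to 57.8%), 41.6% of the 8743 losses with a position (40.5% to 42.6%) and 58.3% of the 974 gains of 10% or more (55.1% to 61.4%). The methylation level itself did not follow position: the median in control stayed between 1.46% and 1.63% and that in cKO between 6.33% and 6.66% over the 10 bins.

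**Figure D3:**
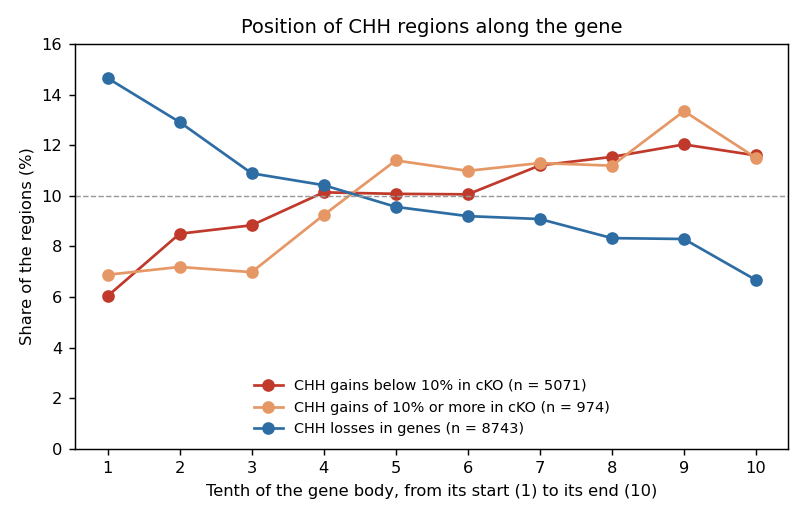
Share of regions (y axis, %) in each of 10 equal bins of the gene body from its start (1) to its end (10), for gains below 10% in cKO, gains of 10% or more and losses, with the dashed line at an even spread. Gains below 10% go from 6.03% to 11.6% and losses from 14.7% to 6.67%.

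Few gains lay close to a start of transcription. Within 1 kb of the nearest start site listed for any gene there were 36 gains (0.710%) and 345 losses (3.95%), and within 2 kb there were 86 gains (1.70%) and 785 losses (8.98%). The gains of 10% or more were like the others, with 17 of 974 (1.75%) within 2 kb. The median distance was 29.6 kb for gains and 21.7 kb for losses. The gap at the start of the gene was widest in short genes. In genes under 50 kb the first bin held 20 of 1050 gains (1.90%) and 14.3% of losses, in genes of 50 to 200 kb 4.63% and 16.8%, and in genes over 200 kb 10.3% and 12.7%. Regions of 1 gene share it and are not independent, and the difference between gains and losses was not tested. Exons, introns and UTRs were not analysed here. A noncoding gene also overlapped 304 of the regions (4.70%), and 0 lay in a miRNA hairpin.

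The gains rarely coincided with differences in CG methylation. A CG region lower in cKO overlapped 0 of the 6463 (which allows up to 0.0571%), and one higher in cKO overlapped 10 (0.155%). Within 10 kb there was a lower CG region for 427 gains (6.61%) and a higher one for 416 (6.44%). Genic CHH losses differed: 742 of 11102 (6.68%) overlapped a CG region lower in cKO, 59.1% had one within 10 kb, and 0 overlapped one that was higher. Of the 2366 genic CG gains, 64 had a CHH gain below 10% within 1 kb, against 11 of the 13731 genic CG losses. CG and CHH levels come from the same libraries and reads, so these are not separate measurements.

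At the 10 shared places, both contexts were higher in cKO. In Arhgef10, a guanine nucleotide exchange factor (chr8:14993971-14994144), CHH went from 1.92% in control to 8.78% in cKO, and the overlapping CG region of 13 CpGs from 39.3% to 64.0%. In Arid1b, a subunit of the BAF chromatin remodelling complex (chr17:5271217-5271394), CHH was 1.81% and 6.81%, and CG 57.2% and 84.8%. Ap3b1, an adaptor subunit of vesicle sorting (chr13:94508574-94508713), had 1.03% and 5.002% in CHH and 67.0% and 87.1% in CG. The Ltbp4 stretch printed above lies wholly inside a CG region of 62 CpGs that went from 11.9% to 35.9%. The other 6 lay in Psd2, Atp8a1, Carmil1, Kcnh2, Negr1 and Tm9sf2. CHG regions, the third context, overlapped 8 gains where higher in cKO and 0 where lower.

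Neighbouring CHH regions mostly shared the direction. The nearest other CHH region lay at a median of 16.01 kb (quartiles 4.96 and 39.4 kb) and was itself a gain in 4986 cases (77.1%). Gains were 15.9% of all autosomal CHH regions, but 7723 of the 18825 inside genes, where all 6463 lie. Within 5 kb, 1624 regions had a neighbour, and in 1572 of these (96.8%) it was a gain. For losses the nearest CHH region was a gain in 5.38%. Joined across gaps of up to 5 kb, 5122 gains stood alone, 514 runs held 2, 75 held 3, 15 held 4, 4 held 5 and 1 held 8.

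The run of 8 lay in Abat, the mitochondrial transaminase that breaks down GABA (chr16:8573838-8589483, 15.6 kb). Control levels there were 1.26% to 3.64% and cKO levels 5.71% to 9.63%. The densest run of 5 lay in Det1, which encodes a ubiquitin ligase adaptor (chr7:78831082-78834000, 2.92 kb, 741 cytosines). From the lower coordinate on, its levels in control were 1.62%, 1.78%, 2.08%, 1.47% and 2.43%. In the same order the cKO levels were 6.45%, 7.04%, 7.97%, 4.89% and 7.57%. Runs of 5 were also found in Gpld1, a phospholipase that cleaves GPI anchors (8.58 kb, 6.61% to 9.05% in cKO), in Ints4, an Integrator subunit (11.6 kb, 3.77% to 9.91%), and in Nsd1.

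Nsd1, the deleted gene, carried 5 of the regions, all with low control levels. They lay between 55245173 and 55248799 on chromosome 13, inside the gene at 55209782 to 55318325. In control they had 0.408%, 0.591%, 0.405%, 0.834% and 0.581%, all under the 1.01% lower quartile of the members. In cKO they had 7.84%, 5.14%, 4.77%, 5.24% and 7.90%. The first had 19.2 times its control level, rank 22 of 6463, and among the 6463 its absolute area statistic in the authors' deposited table was second after Det1. That statistic is a score of the authors that adds up over cytosines, so that it favours regions with many of them. The position of the deleted exons was not analysed here, so the extent of the deletion cannot be read from these levels.

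Ranked by the area statistic in the authors' deposited table, with 1 region per gene, Det1 and Nsd1 were followed by 6 others. Dnmbp, a guanine nucleotide exchange factor for Cdc42 (chr19:43908150-43908538, 176 cytosines), had 1.76% in control and 9.88% in cKO. Armh3 (chr19:45961962-45962413, 170 cytosines) had 1.40% and 9.11%. Snx29, a sorting nexin (chr16:11466052-11466332, 161 cytosines), had 1.54% and 8.35%. With 161 to 176 cytosines each, they are far longer than the median region. Bcat1, the cytosolic branched-chain aminotransferase, had 1.18% and 5.66% over 186 cytosines. Armt1, a protein carboxyl methyltransferase, had 1.01% and 8.47% over 123, and the calcium-binding protein gene Efcab6 had 1.18% and 8.601% over 151.

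The largest differences over at least 50 cytosines came close to the 10% bound that limits them. Nfatc2, a calcineurin-dependent transcription factor (chr2:168499847-168500026), had 0.763% in control and 9.70% in cKO, a difference of 8.94 points. Tenm4, a teneurin adhesion receptor (chr7:96603790-96603927), had 0.988% and 9.86%. Pik3cb, a catalytic subunit of PI3-kinase, had 1.14% and 9.97%. Eml6, a microtubule-associated protein, had 0.644% and 9.31%, and Kifap3, which joins cargo to kinesin-2, had 0.809% and 9.46%. A second region of Armh3 had 1.21% and 9.87%, so that this gene appears in both rankings. It carried 9 members in 181 kb and 0 CHH losses.

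The 8 genes with the most regions were 155 to 1612 kb long. The eighth, Ctnnbl1, is the shortest of 6 genes tied at 13 regions. Nrxn3, a presynaptic neurexin that spans 1612 kb on chromosome 12 (88722701 to 90334935), had 24, with 0.325% to 3.13% in control and 3.13% to 9.89% in cKO. They were spread over the gene from 0.642% to 95.1% of its length, 14 of them past the midpoint, and 3 further gains reached 10% while 0 CHH losses were listed. Rbfox1, a splicing factor of 1528 kb, had 17 (0.383% to 3.54% in control, 3.21% to 9.78% in cKO), beside 2 CHH losses and 4 CG gains. Only 5 of the 17 lay past the midpoint.

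Syne1 and Dscam had 16 each. In Syne1 (531 kb) the levels were 0.503% to 3.60% in control and 4.09% to 9.9997% in cKO, and 6 CG gains and 0 CG losses were listed beside them. In Dscam (584 kb), an immunoglobulin-type receptor for self-recognition of neurites, they were 0.569% to 2.97% and 4.68% to 9.26%, and 11 of the 16 lay past the midpoint. Snx29 had 15 in 436 kb, 13 of them before the midpoint, with 0.545% to 3.21% in control and 3.53% to 9.44% in cKO. Dpp10, an auxiliary subunit of A-type potassium channels, had 15 in 1514 kb (0.450% to 2.52% and 4.31% to 8.85%). Csmd2, a large membrane protein with complement-type domains, had 14, and Ctnnbl1, a spliceosome-associated protein, had 13 in 155 kb (1.17% to 3.65% and 5.74% to 9.50%). In Csmd2 the levels were 0.483% to 3.92% in control and 2.64% to 8.06% in cKO. Each region was chosen as higher in cKO, so a gap between such ranges is not a separate result.

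**Figure D4:**
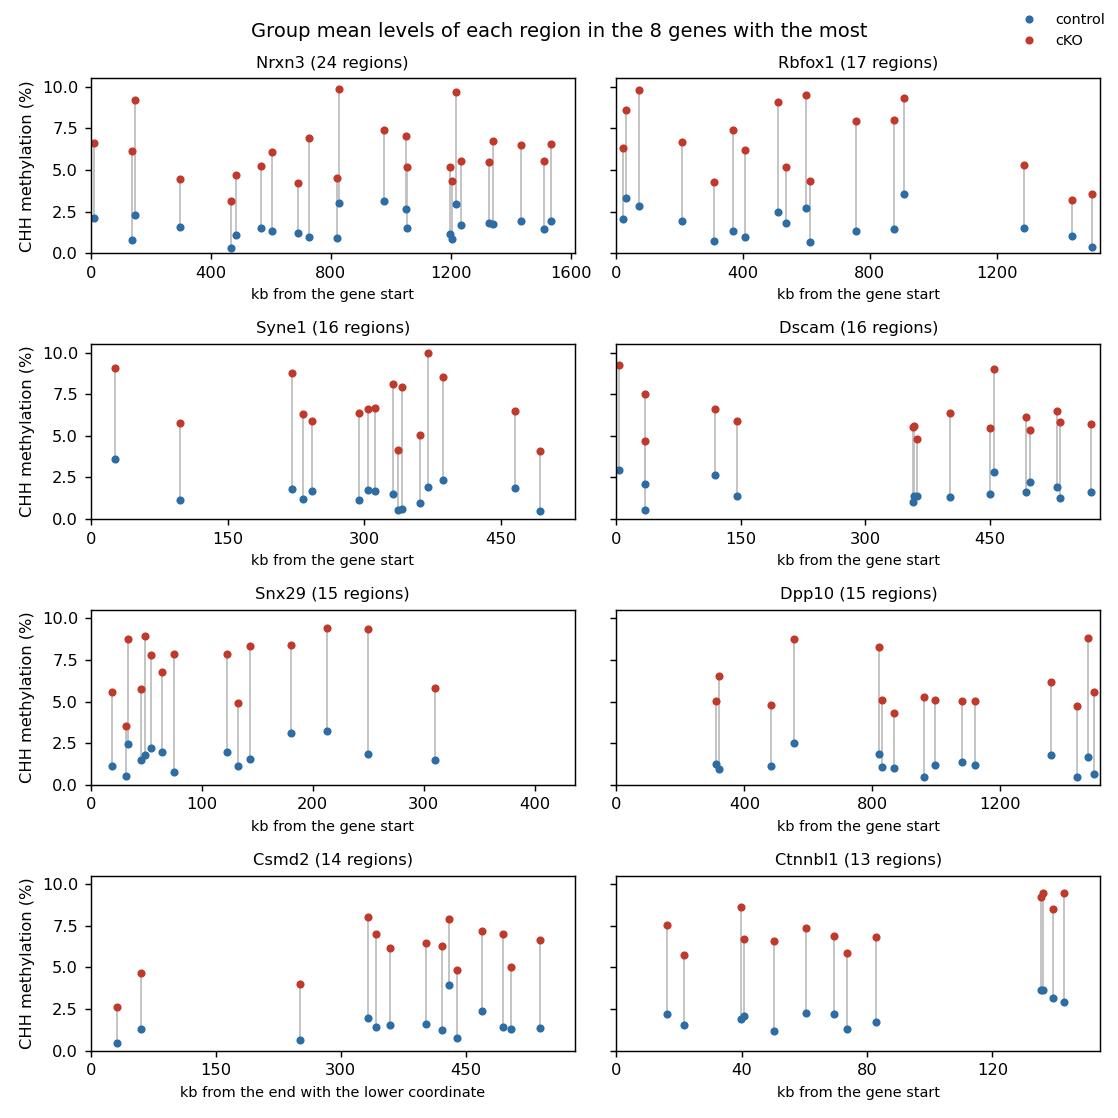
Mean CHH methylation (y axis, %) in control (blue) and cKO (red) of every gain below 10% in the 8 genes that carry the most, by distance from the gene start (x axis, kb; from the lower coordinate in Csmd2, whose strand was not read). The 24 regions of Nrxn3 run along the gene with 0.325% to 3.13% in control and 3.13% to 9.89% in cKO, while 13 of the 15 in Snx29 lie before its midpoint.

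By density the order differed, and genes of moderate length led. Among genes with at least 5 regions, Det1 had 23.1 per 100 kb (6 in 26.0 kb). Ints4 had 16.5 (10 in 60.4 kb), with levels of 0.571% to 3.46% in control and 3.77% to 9.91% in cKO. Dstyk, a dual-specificity kinase, had 12.1 and Esf1, a factor of ribosomal RNA processing, 11.8 (6 regions each). Det1, Ints4, Dstyk and Esf1 had 0 CHH losses each. Over all genes the mean was 6.51 regions per Mb.

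Genes with many gains also carried other kinds of regions more often, and they are longer. Of the 42 genes with 10 or more, 78.6% also had a gain of 10% or more, 64.3% a CG gain, 47.6% a CG loss and 31.0% a CHH loss. Of the 1576 genes with 1 region the shares were 10.9%, 18.6%, 24.2% and 13.5%. Of all 2994 carriers, 459 (15.3%) had a CHH loss, against 15.7% over all genes, 710 (23.7%) had a CG gain, against 7.56%, and 885 (29.6%) had a CG loss, against 19.3%. Carriers are longer than other genes, and the shares were not adjusted for length. In 29 of the 42 (69.0%) no CHH loss was listed.

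Groups of genes were compared with the 14.6% of all genes that carry a region, as a description beside their median gene length. Of the 24 lists, 14 lay above that share and 5 had 0 carriers. That share does not allow for length. Of all genes, 34.9% carried a gain in the ninth length decile (median 78.0 kb) and 55.4% in the longest (median 188 kb). Of the 14 lists, those of adhesion, glutamate receptors, potassium channels and DNA methylation lay above the decile of their median length. The rest of the 14 lay below it, and this was not tested. By number of regions per Mb of gene body, where all genes had 6.51, 6 lists lay above all genes. The order then differed: genes of DNA methylation had 9.28, release genes 8.58, cytoskeletal genes 8.49 and potassium channels 7.20. The H3K36 list had 7.18, with 5 of its 10 regions in Nsd1, the deleted gene. Nsd1 spans 109 kb of the 1.39 Mb of that list. Sodium, calcium and pacemaker channels had 6.87. RNA-binding genes had 6.27, GABA receptors 6.09, synaptic adhesion genes 5.78, glutamate receptors 5.29 and postsynaptic genes 4.59. Upper layer genes had 5.98, excitatory neuron and cortical transcription factors 5.46, astrocyte markers 4.68 and activity-regulated genes 3.87. Microglia markers had 3.38, deep layer genes 3.24, interneuron markers 1.57 and developmental transcription factors of other lineages 0.591. The astrocyte, activity-regulated, microglia and developmental lists held 2 regions each. The share of carriers was highest in 3 lists of long synaptic and channel genes, those of adhesion, glutamate receptors and potassium channels. Of 51 synaptic adhesion genes (median 332 kb), 36 carried a region (70.6%), 169 regions in all. Tenm2 had 13, with 0.663% to 3.03% in control and 3.65% to 9.92% in cKO, and 23 CG losses in the same gene. Tenm4 had 11 (0.988% to 3.96% and 5.09% to 9.86%). The neuroligin Nlgn2, the adhesion gene Cntn5 and 13 others of the list had 0.

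Among ion channels, 20 of 31 potassium channel genes carried a region (64.5%, 74 regions). Kcnip4, a calcium-binding partner of A-type channels, had 11 (0.729% to 2.54% in control, 4.89% to 9.09% in cKO), and the sodium-activated channel gene Kcnt2 had 7 (0.547% to 1.83% and 3.43% to 7.94%). Sodium, calcium and pacemaker channel genes did so in 14 of 30 (46.7%). Cacng2, which encodes stargazin, an AMPA receptor partner, had 6 (0.838% to 2.59% and 4.81% to 9.41%), as did Cacna2d3, an auxiliary calcium channel subunit (1.24% to 4.04% and 7.06% to 9.85%). Cacna1d, a pore subunit of L-type calcium channels, had 4 beside 6 CHH losses, so that both directions occur in 1 gene.

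Among receptors, 15 of 23 glutamate receptor genes carried a region (65.2%). The AMPA receptor gene Gria1 had 11 (0.723% to 3.36% in control, 3.21% to 9.42% in cKO) and Grm7, a presynaptic metabotropic receptor, had 6 (0.627% to 1.82% and 3.02% to 8.13%). In 9 of the 23 a CHH loss was listed. GABA receptor genes had a carrier share of 46.2% (6 of 13), with 1 gene showing a CHH loss. Gabrb1 had 6 (0.716% to 2.17% and 4.64% to 8.65%) and Gabra2 had 4 (0.682% to 3.27% and 3.22% to 8.76%).

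Presynaptic and postsynaptic lists stood at 51.4% and 54.5% by carriers, and at 8.58 and 4.59 by regions per Mb. Of 35 release genes, 18 carried a region, and 2 had a CHH loss. Erc2, an active zone scaffold, had 13 (0.692% to 3.06% in control, 3.77% to 9.64% in cKO). Cadps, which primes dense-core vesicles, and Rims2, an active zone protein, had 8 each, while Syt1 and Snap25, core parts of vesicle fusion, had 0. Of 33 postsynaptic genes, 18 carried a region, led by Anks1b with 8 (0.804% to 2.50% and 4.87% to 8.93%), and by the scaffold genes Dlgap2 with 7 and Dlg2 with 6. Splicing and RNA-binding genes did so in 13 of 31 (41.9%), among them the neuronal splicing regulator Srrm4 with 7 and Celf2 with 5 (0.475% to 0.944% and 3.75% to 5.16%). Celf2 also carried 13 CG gains. Of 33 cytoskeletal genes 13 were carriers (39.4%). The dynein chain gene Dync1i1 had 10 (0.502% to 2.72% and 4.37% to 9.31%), and 4 regions of Map4 all lay past the midpoint.

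Lists of transcription factors and layer genes had smaller shares of carriers. Of 30 genes for excitatory neuron and cortical transcription factors, 8 carried a region (26.7%). Camta1, a calmodulin-binding transcription activator, had 11 (1.94% to 3.71% in control, 7.01% to 9.95% in cKO), beside 10 gains of 10% or more, 13 CHH losses and 23 CG losses. Auts2 had 4 beside 8 CHH losses. Deep layer genes had 6 carriers of 23 (26.1%) and 11 genes with a CHH loss. Foxp1 led with 5 (1.11% to 2.52% and 4.87% to 9.54%), and the subcerebral factors Bcl11b and Fezf2 had 0. Upper layer genes had 3 of 20 (15.0%), namely Cux1 with 7 (1.27% to 4.24% and 5.41% to 9.97%), Unc5d with 4 and Epha3 with 4. Of 30 activity-regulated genes, short genes with a median of 7.89 kb, 2 were carriers (6.67%), one of them Nr4a3 (3.76% and 9.98%).

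Markers of cells outside the Nex lineage had carrier shares of 0% to 12.5%, at median gene lengths of 10.1 to 40.1 kb. Over all genes the share was 2.58% in the length decile with a median of 9.83 kb. It was 5.30% at 14.7 kb, 8.75% at 21.1 kb and 23.4% at 45.2 kb. By carriers, interneuron, astrocyte and microglia markers lay above the decile of their median length, and oligodendrocyte and endothelial markers below it. Per Mb of gene body, interneuron (1.57), astrocyte (4.68) and microglia markers (3.38) lay below the 6.51 of all genes. The interneuron median of 10.2 kb stands beside long genes such as Erbb4, of 1077 kb. These differences were not tested. Interneuron markers had 3 carriers of 28 (10.7%), Nos1 with 2, Satb1 with 2 and Erbb4 with 1, and 13 genes with a CHH loss. Erbb4, a neuregulin receptor, had 24 CHH losses beside its 1 gain (0.788% in control, 3.03% in cKO). Astrocyte markers had 1 carrier of 16, the glutamate transporter Slc1a2 with 2 regions (1.07% in control and 5.04% in cKO in the first, 1.22% and 4.83% in the second). Microglia markers had 2 of 16, the myeloid factor Spi1 (0.579% and 4.32%) and the purine receptor P2ry12 (2.78% and 8.31%), and 9 genes with a CHH loss. Oligodendrocyte lineage markers had 0 of 17 and endothelial and mural markers 0 of 16, with 6 and 10 genes carrying a loss.

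Developmental transcription factors of other lineages (median 14.2 kb) had 2 carriers of 67 (2.99%), Mitf (2.20% and 8.07%) and Foxa2 (0.208% and 3.56%). A CHH loss was listed in 34 of the 67. In the length decile that holds this median, 5.30% of all genes carried a gain and 11.8% a loss. Of 38 genes not active in cortex, such as olfactory receptors (median 7.72 kb), 0 carried a gain and 5 a loss. The decile of that median had 1.07% of genes with a gain and 6.76% with a loss. Ribosomal protein genes (29, median 3.27 kb) and proteasome and folding genes (25, median 12.4 kb) carried 0 of either. Of 18 writers, erasers and readers of DNA methylation, 3 carried a region (16.7%, 9.28 per Mb from 10 regions in 1.08 Mb), with 6 in Mbd5 (0.374% to 1.91% in control, 3.11% to 8.31% in cKO) and 3 in the dioxygenase gene Tet2 (1.83% to 2.35% and 6.18% to 8.29%), and Dnmt3a had 0. Of 21 H3K36 methyltransferases, demethylases and readers of the mark 5 were carriers (23.8%), namely Nsd1 with 5, the demethylase gene Kdm2b with 2, and 1 each in Nsd3, Smyd2 and Kdm4d, while Setd2 had 0.

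**Figure D5:**
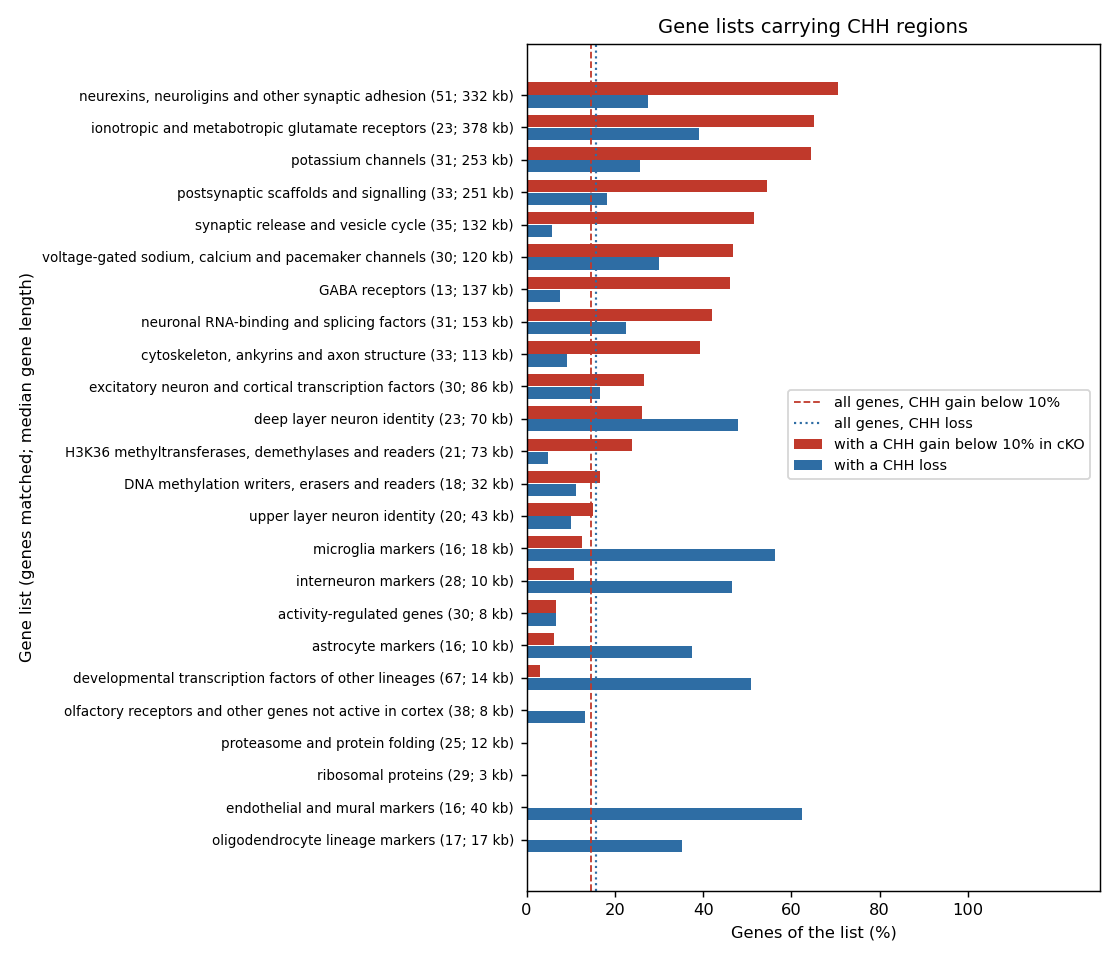
Share of genes (x axis, %) in each of 24 lists that carry at least 1 CHH gain below 10% in cKO (red) or a CHH loss (blue), with the number of genes matched and the median gene length after each name. Dashed and dotted lines mark all genes, at 14.6% and 15.7%. Synaptic adhesion genes reach 70.6%, while ribosomal protein genes and endothelial markers have 0% in gains.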

How the data were processed

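Whole-genome bisulfite sequencing libraries (2 cKO, 2 control) were compared through 1 table. Per the submitters' processing notes, CASAVA, Bowtie2 and the build mm10 were used, without versions or roles. For the region caller, its thresholds and the handling of replicates: not given in the sources used here. Levels were deposited by the authors as a fraction from 0 to 1 per group and are printed as percent. The deposited area statistic is a score without fixed range, used only to rank and filter regions. The authors also deposited each region's difference, which departed from cKO minus control by more than 1e-09 in 0 regions, its length and its cytosine number.

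Gene bodies came from RefSeq (GRCm38.p6, equal to mm10), leaving out entries within the first 3 Mb of a chromosome. A region belonged to every gene sharing at least 1 bp. A region in several genes was named by the shortest that is not a predicted model (49 regions lay in 2 or more). Starts and strands came from the RefSeq promoter table, which gave a strand for 16456 of 20556 genes. Of 680 listed genes, 667 matched. Members and lists were chosen with earlier results of these data known.

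Named were the 8 regions with the largest absolute area statistic and the 6 that differed most among those with at least 50 cytosines (1 per gene), the 8 genes with most regions, the 5 densest with at least 5, up to 3 leading genes per list, the 3 regions on each side of the bound, and those overlapping CG regions. Some genes the rule takes are not described, and some list members with 0 regions, Smyd2, Kdm4d and the runs were named after their values were seen.

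No genome sequence was used, so the exon share and the CA share over all regions were not computed. Overlaps were tested on simulated data. Analyses used Python 3.11.15, pandas 2.3.3, NumPy 2.4.6, SciPy 1.17.1 and matplotlib 3.10.9. Alternatives were a bound of 8%, stricter overlap, a filter on the area statistic, at least 50 cytosines, and no predicted gene models.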

Additional observations from a re-analysis of the deposited data

How the results depend on the processing

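Of 70 main values recomputed, 54 kept their size and 16 moved. A change of sign could not occur, because the rule keeps every difference above 0. Some values could not move, such as the position shares of losses under the bound of 8%, which leaves losses untouched. With a bound of 8% the median difference was 4.49 points, and gains were 31.1% of the genic CHH regions under the bound. With the area statistic of the authors' deposited table at or above its CHH median (218), there were 2620 regions in 1702 genes, with a median difference of 5.44 points, a share of gains of 30.9%, 58.0% past the midpoint of the gene, and 9.61% of losses within 2 kb of a start. With at least 50 cytosines these were 2088 regions in 1436 genes, 5.49 points, 28.8%, 58.0% and 9.93%. Counting CG regions within 1 kb in place of overlap gave 0.959% for higher and 0.155% for lower ones. Placing regions in the longest gene, an alternative chosen after seeing the data, moved neither position share beyond its interval. The number of lists above all genes lay between 12 and 14. List counts stayed within 1.5 times in 111 of 144 cases and counts in named genes in 252 of 396.  Leaving out 1 library could not be done, because the table holds group means. No paired analysis was possible because the table has no column per library. Exon and CA shares over all regions were not run, since no genome was used. Depth is unknown, so a low control level cannot be told from few reads.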

Other observations

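The largest ratios of cKO to control fell on regions with control levels near 0, and these were chosen after their values were seen. Ddx10, an RNA helicase gene, had 0.128% in control and 4.30% in cKO over 36 cytosines, a ratio of 33.5. Snrpn, an imprinted gene of the spliceosome, had 0.159% and 4.16% (ratio 26.2). In Nrg3, an ErbB4 ligand of neurons, a region of 47 cytosines had 0.262% and 6.45%, and in Kcnh1, a voltage-gated potassium channel gene, one of 58 cytosines had 0.294% and 6.77%. In Esf1 the ratio of 24.9 rested on 8 cytosines.

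Gains below 10% ran from 5.34 per Mb of gene body on chromosome 3 to 7.81 on chromosome 5. Their share among genic CHH regions below 10% in cKO ran from 29.7% on chromosome 17 to 45.6% on chromosome 12.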
